A study of Arundo donax with 9 samples.

Results

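Leaves of Arundo donax (giant cane) under severe salt, G2-S3, were compared with leaves of unstressed plants, G2-CK. The comparison takes 6 of the 9 libraries of the series, 3 per group, and describes 13350 protein names out of 14153 listed anywhere in the series. All plants belonged to G2, a single vegetatively propagated clone, and were watered once a week. G2-CK received water without added salt and G2-S3 water with 250 mM NaCl. By the study's methods, which state a slightly higher dose for G2-S3 than the sample labels, each plant grew from a rhizome in a pot of sandy soil from summer to autumn, and the leaf taken was the third from the top, a mature one that showed no senescence. The description given to GEO calls the replicates biological. A further group, G2-S4, received 420 mM NaCl, and its levels are given below only where they help to place a value, because its comparison with G2-CK would share the same control libraries. Its libraries also entered the statistical fit, where all 9 libraries share the estimate of the spread.

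A. donax is a perennial C3 grass, polyploid and without a reference genome in this work, so reads were counted on de novo assembled unigenes. A protein name is the description of the best Swiss-Prot hit of a unigene, and the reads of all unigenes with the same name were summed. Names may therefore merge gene copies, and close relatives may be split over several names. Excess NaCl in the root zone lowers the water potential outside the plant and loads leaves with sodium and chloride. Plants are known to answer with abscisic acid (ABA) signalling, compatible osmolytes such as proline and raffinose sugars, sodium transport across the plasma membrane and the tonoplast (the membrane of the vacuole), and a change in carbon gain and growth.

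Levels are given as CPM, listed reads scaled to the size of the library, where a unigene that is not listed in a library counts as 0. A unigene is listed only above 0.3 FPKM, so a 0 means at or below that limit and not absence. Fold changes come from a model in which an unlisted unigene was set to this limit, so they can be smaller than the ratio of the printed levels. A name is called higher or lower where the adjusted p is under 0.05 in a two-sided quasi-likelihood test with edgeR, adjusted after Benjamini-Hochberg over the 12411 names tested. Of the 13350 names, 12282 were tested and 1068 had too few reads, and 129 of the tested names were listed in G2-S4 alone. Errors of a log2 fold change are standard errors (SE) of this fit with n = 3 libraries per group. In a bulk leaf sample, fewer cells of a type and less RNA per cell cannot be told apart.

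The 6 libraries held 23.01 to 25.69 M mapped read pairs each, as recovered from the counts and the FPKM, and 78.9% to 80.2% of the listed reads lay on unigenes with a protein name. Sequencing was paired-end, and a read in the counts stands for such a pair. The salt libraries were not alike. On the first principal component, which took 64.5% of the variance over the tested names, the controls lay between -29.2 and -25.3, G2-S3 replicates 1 and 2 at 32.6 and 42.1, and G2-S3 replicate 3 at 6.04. The root mean square log2 distance of replicate 3 to the controls was 0.453 to 0.484, against 0.574 to 0.673 for replicates 1 and 2 and 0.263 to 0.341 among the controls. Where leaving out this or another library ended a call or moved a fitted fold change of a called name by over 1.5 times, this is given beside the result. Names of leaf mesophyll (Rubisco small chains, chlorophyll a-b binding proteins and photosystem subunits) were abundant, as the label leaf requires: 57 of 62 were listed, with a summed level of 16532 to 19294 CPM in G2-CK and 14206 to 15203 CPM in G2-S3, while the 3 root names summed to under 6 CPM in each library.

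**Figure D1:**
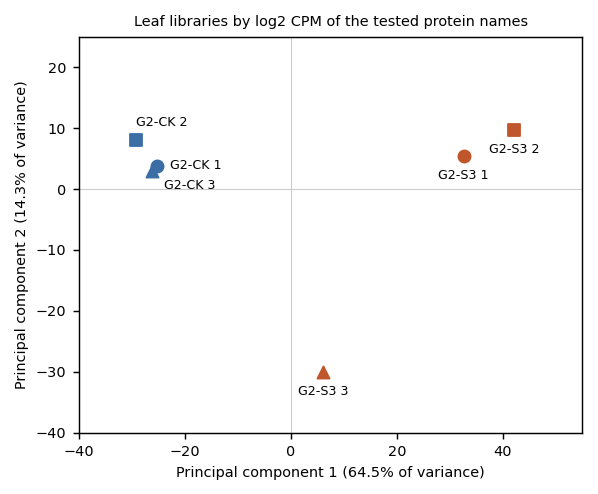
Principal components of the 6 libraries over the tested protein names, from log2 CPM, with G2-CK in blue, G2-S3 in orange and the replicate number given by the symbol. The controls lie together at the left (-29.2 to -25.3 on component 1), G2-S3 replicates 1 and 2 at the right (32.6 and 42.1), and G2-S3 replicate 3 between them at 6.04.

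Between severe salt and control, 2019 of the 12411 tested names differed in level, which is 16.3%. Of these, 1166 (9.39%) were higher and 853 (6.87%) lower, and at an unadjusted p under 0.05 there were 4098 names. Most changes were moderate, with a median log2 fold change of 0.63 among the higher and -0.53 among the lower names, while 345 higher and 187 lower names changed by at least 1 on the log2 scale. In the controls 9.51% ± 0.26 (SD, n = 3) of the reads on named unigenes fell on the names called higher, and in G2-S3 15.4% ± 1.90. On the names called lower the shares were 12.3% ± 0.26 in the controls and 8.08% ± 0.74 in G2-S3. The calls came from these same libraries, so the direction of both shifts was fixed in advance and only their size is described. The groups did not overlap in 1139 of the higher and 848 of the lower names, where over all tested names 18.4% had all G2-S3 libraries above all controls and 17.4% had them below. Replicate 3 was the lowest of the salt libraries in 882 of the 1166 higher names (75.6%).

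Without G2-S3 replicate 3, 3135 of 12585 names were called, 1806 higher (14.4%) and 1329 lower (10.6%), and 1863 of the 2019 calls were kept in the same direction. In what follows the left-out libraries are called control 1 to control 3 and salt 1 to salt 3. Fewer names were called without any library other than salt 3: 1447 without control 1, 735 without control 2, 1014 without control 3, 952 without salt 1 and 923 without salt 2. Of 239 called names that were looked at one by one, 110 kept their call whichever of the 6 libraries was left out. A called name given below belongs to these 110 unless the libraries without which its call was lost are stated. This does not hold for names that are only listed as split between the salt libraries, or for the name under other observations.

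The largest increases were spread over nitrogen, carbon, defence and cell wall functions. The lead was taken by Ribonuclease 1, a secreted S-like ribonuclease known in Arabidopsis as responsive to phosphate starvation and wounding. It lay at 0.121, 0.542 and 0.212 CPM in G2-CK and 60.1, 109.5 and 2.93 CPM in G2-S3 (log2 fold change 5.91 ± 1.08, 5.05 without salt 2, adjusted p = 0.0089). All salt libraries were above all controls, as the choice required, but replicate 3 was more than an order of magnitude below the other salt libraries. Nitrate reductase [NAD(P)H], which reduces nitrate to nitrite, lay at 2.91, 2.90 and 1.40 CPM in G2-CK and 148, 171 and 29.6 CPM in G2-S3 (log2 fold change 5.04 ± 0.61, adjusted p = 0.0017). Cation/H(+) antiporter 16, a member of the CHX family of monovalent cation exchangers, was listed in 1 control library, at 0.509 CPM, and lay at 21.6, 10.4 and 2.97 CPM in G2-S3 (log2 fold change 4.57 ± 0.76, 3.77 without salt 1, adjusted p = 0.0061).

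Transcription factor bHLH96 rose from 0.606, 0.619 and 0.0424 CPM to 56.0, 198 and 21.98 CPM (log2 fold change 4.998 ± 0.74, 3.78 without salt 2, adjusted p = 0.0039). Thaumatin-like pathogenesis-related protein 1, of a defence protein family that includes osmotin, rose from 3.96, 2.94 and 2.46 to 46.2, 122 and 26.7 CPM (log2 fold change 4.38 ± 0.62, 3.54 without salt 2, adjusted p = 0.0033). For both names the groups were well apart, and the mean level in G2-S4 was higher still, at 534 and 217 CPM. Peroxidase 3, a secreted class III peroxidase, and Sugar transport protein 10, which carries hexoses into the cell together with protons, rose by 3.71 ± 0.30 and 3.59 ± 0.25 on the log2 scale, the latter from 11.5, 13.8 and 17.3 to 195, 217 and 119 CPM. A pair of fasciclin-like arabinogalactan proteins, cell surface glycoproteins, were among the leaders too. Number 11 of this family, which in Arabidopsis is linked to secondary walls, was listed in 1 control library at 0.363 CPM and lay at 28.6, 43.8 and 8.403 CPM in G2-S3 (log2 fold change 5.20 ± 0.65, adjusted p = 0.0019), and number 13 rose from 3.71, 2.67 and 5.81 to 41.1, 73.1 and 30.1 CPM (log2 fold change 3.57 ± 0.37, adjusted p = 0.0010).

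By the same choice, the largest decreases included enzymes of amino acid metabolism, a protease and the kinases of phosphoenolpyruvate (PEP) carboxylase. Tryptophan aminotransferase-related protein 4, a relative of the aminotransferases of auxin synthesis, fell from 254, 229 and 286 to 29.8, 20.2 and 21.98 CPM (log2 fold change -3.40 ± 0.15, adjusted p = 2.4e-05). The salt libraries were close to each other here, replicate 3 included. Arogenate dehydratase 3, which forms phenylalanine in the plastid, fell from 63.4, 31.5 and 36.3 to 1.88, 1.47 and 8.19 CPM (log2 fold change -3.12 ± 0.42, -3.85 without salt 3, adjusted p = 0.0027). KDEL-tailed cysteine endopeptidase CEP1, a protease of programmed cell death in Arabidopsis, fell from 24.1, 14.7 and 8.65 to 1.24, 1.80 and 0.340 CPM (log2 fold change -3.47 ± 0.43, adjusted p = 0.0018). Protein RADIALIS-like 3, a small MYB-type protein, went from 165, 135 and 97.8 to 18.1, 20.7 and 21.0 CPM (log2 fold change -2.60 ± 0.17, adjusted p = 0.00027). That no salt library reached the lowest control in any of these names was required by their choice.

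BURP domain-containing protein 13, of a plant-specific protein family, fell from 12.4, 11.4 and 14.2 to 0.428, 0.126 and 3.82 CPM (log2 fold change -2.90 ± 0.53, -4.24 without salt 3, adjusted p = 0.0087). Salt 3 was nearest the controls here and, as the choice required, below all of them. Further names among the largest decreases were a 2-oxoglutarate-dependent dioxygenase named At3g111800 (log2 fold change -2.69, -2.08 without control 1), Transcription factor BHLH148 (-2.47), which in rice takes part in jasmonate responses, and Beta-fructofuranosidase 1 (-2.34), an invertase. The call of the invertase was lost without control 2, control 3, salt 1 or salt 2 (adjusted p up to 0.077).

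**Figure D2:**
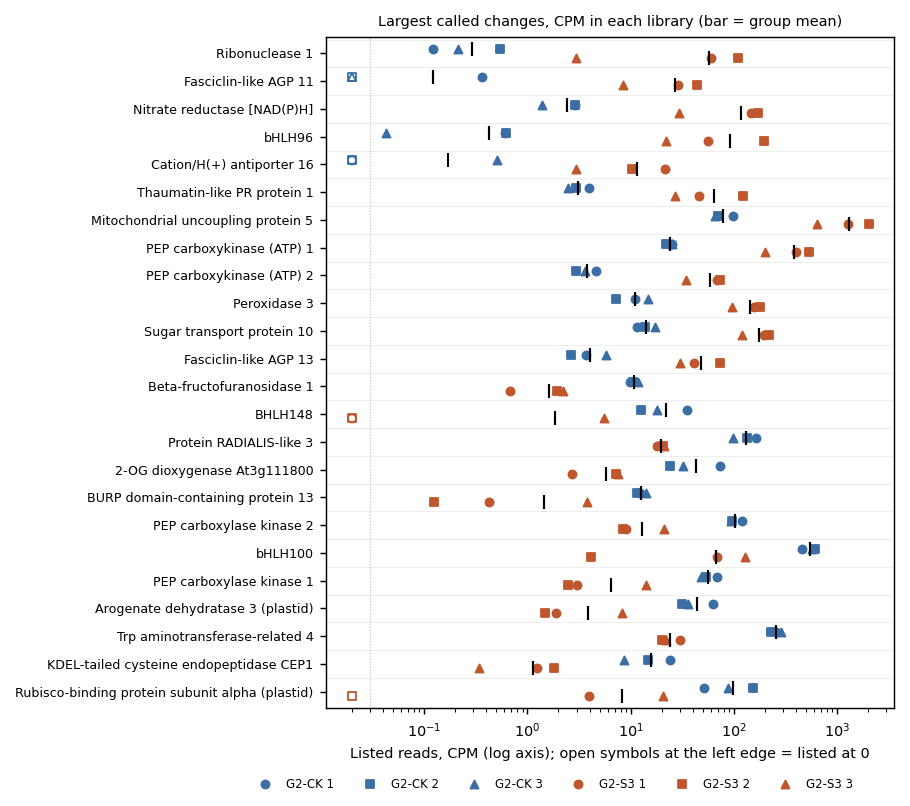
CPM of listed reads on a log axis for the 24 protein names with the largest called increases and decreases, with G2-CK in blue, G2-S3 in orange, the replicate given by the symbol, the group mean by a bar and values listed at 0 as open symbols at the left edge. Ribonuclease 1 stands at the top (log2 fold change 5.91), and among most of the increases the triangle of G2-S3 replicate 3 is the lowest salt value.

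In read numbers, the largest gain was that of PEP carboxykinase, which converts oxaloacetate to PEP with ATP and stands at the entry to gluconeogenesis. Phosphoenolpyruvate carboxykinase (ATP) lay at 324, 256 and 268 CPM in G2-CK and 2841, 3818 and 1378 CPM in G2-S3 (log2 fold change 3.24 ± 0.32, adjusted p = 0.00090). The other names of the enzyme moved with it, number 1 from 24.9, 21.8 and 25.3 to 396, 537 and 202 CPM and number 2 from 4.64, 2.98 and 3.60 to 68.8, 73.5 and 34.5 CPM, both with a log2 fold change of 3.98. These 3 names belong to close relatives, so they are not independent of each other. Mitochondrial uncoupling protein 5, an inner membrane carrier described in Arabidopsis as a carrier of dicarboxylates, rose from 99.0, 70.4 and 65.4 to 1273, 2017 and 633 CPM (log2 fold change 4.06 ± 0.39, adjusted p = 0.00086). Oxalate--CoA ligase, which activates oxalate for its breakdown, rose from 218, 149 and 168 to 1207, 1712 and 679.8 CPM (log2 fold change 2.75 ± 0.31, adjusted p = 0.0013). In each of these names replicate 3 was the lowest salt library and still above every control, and the G2-S4 means of 3529.8, 2457 and 1791 CPM lay in or above the range of G2-S3.

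Catalase-1, which breaks down hydrogen peroxide, and Strigolactone esterase D14, the strigolactone receptor, completed the 5 largest gains among the called names. Catalase-1 lay at 1388, 1392 and 1589 CPM in G2-CK and 2212, 2442 and 1859 CPM in G2-S3 (log2 fold change 0.58 ± 0.12, adjusted p = 0.016). Strigolactone esterase D14 lay at 1135, 918 and 1190.2 CPM in G2-CK and 1492, 1509 and 2222 CPM in G2-S3 (log2 fold change 0.69 ± 0.17, adjusted p = 0.024), and here replicate 3 was the highest library. Their calls were lost without control 2, salt 1 or salt 2 (adjusted p up to 0.071) and without control 1, control 2 or control 3 (adjusted p up to 0.096), respectively.

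On the side of losses, the 5 called names that gave up the most reads included a vacuolar protease, a senescence protease and a Rubisco small chain, which is given with the Calvin cycle. Vacuolar-processing enzyme, which activates vacuolar proteins by cleavage, lay at 3485, 4199.8 and 3887 CPM in G2-CK and 1962, 1585 and 2917 CPM in G2-S3 (log2 fold change -0.84 ± 0.23, adjusted p = 0.037), a call that was lost without any library other than salt 3 (adjusted p up to 0.12). Senescence-specific cysteine protease SAG39 fell from 3113, 2819 and 2503 to 1455, 1078 and 1197 CPM (log2 fold change -1.18 ± 0.15, adjusted p = 0.0021). Histone H1, the linker histone, fell from 1299, 1377 and 1732 to 662, 639 and 984 CPM (log2 fold change -0.95 ± 0.18, adjusted p = 0.0096). The largest loss was that of Protein TAR1, a yeast name for a protein encoded opposite to ribosomal RNA, with 5375, 5353 and 5828 CPM in G2-CK and 3522, 3665 and 3886 CPM in G2-S3 (-0.58, adjusted p = 0.016), a call lost without control 2, control 3, salt 1 or salt 2 (adjusted p up to 0.065).

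PEP carboxylase fixes bicarbonate onto PEP, and its kinases keep the enzyme active by phosphorylation. Phosphoenolpyruvate carboxylase kinase 1 fell from 68.0, 53.3 and 48.1 to 3.04, 2.47 and 14.0 CPM (log2 fold change -3.11 ± 0.55, -4.36 without salt 3, adjusted p = 0.0081) and kinase 2 from 119, 95.4 and 92.8 to 9.11, 8.51 and 21.1 CPM (log2 fold change -2.93 ± 0.29, adjusted p = 0.00091), with every salt library below every control. The carboxylase itself was called under 0 of its 5 names with edgeR. Phosphoenolpyruvate carboxylase 1 had 601, 447 and 422 CPM in G2-CK and 460.2, 553 and 528 CPM in G2-S3 (log2 fold change 0.07 ± 0.15, adjusted p = 0.81), and Phosphoenolpyruvate carboxylase 2 had a log2 fold change of -0.34, adjusted p = 0.069. NADP-dependent malic enzyme of the chloroplast, which releases CO2 from malate, rose from 386, 325 and 337 to 556, 667 and 470.5 CPM (log2 fold change 0.69 ± 0.14, adjusted p = 0.012). Its call was lost without control 2 (adjusted p up to 0.061), and its most abundant unigene alone did not share the rise (log2 fold change -0.15). Neither the NADP-dependent malate dehydrogenase of the chloroplast (-0.18, adjusted p = 0.29) nor pyruvate, phosphate dikinase 1 (0.24, adjusted p = 0.36) was called.

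Of the photosynthetic apparatus, the names that passed the edgeR test were lower by small amounts. Of 54 tested names of light harvesting and the photosystems, 8 were lower and 0 higher with edgeR, 14.8% against 6.87% lower over all tested names (median log2 fold change -0.21, against 0.01 over all), and 43 of the 54 were fitted below 0. At an unadjusted p under 0.05 there were 19 lower and 0 higher, and with DESeq2 16 and 0. The lower names numbered 3 to 9 with 1 library left out, 3 without control 2, control 3 or salt 2, 4 without salt 1. Photosystem I reaction center subunit XI fell from 1840.1, 1939 and 1877 to 1313, 1210.3 and 1434 CPM (log2 fold change -0.51 ± 0.09, adjusted p = 0.0066), the psbY proteins of photosystem II from 289, 318 and 272 to 219, 213 and 184 CPM (-0.51), and Chlorophyll a-b binding protein 3 changed by -0.76. Oxygen-evolving enhancer protein 1, among the most abundant members, was not called (-0.02, adjusted p = 0.94).

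Of 21 Calvin cycle names 3 were lower and 0 higher with edgeR, against 6 and 1 at an unadjusted p under 0.05 and 3 and 1 with DESeq2. With edgeR that was 14.3% lower, against 6.87% over all names. The lower names numbered 1 to 3 with 1 library left out, 1 without control 2, control 3, salt 1 or salt 2. Ribulose bisphosphate carboxylase small chain A fell from 2906, 3483 and 3058 to 2215, 1890.3 and 2229.6 CPM (log2 fold change -0.58 ± 0.11, adjusted p = 0.011), and its level in G2-S4 was 555 ± 44.3 CPM (SD, n = 3). The small chain listed without a letter (-0.48) and Sedoheptulose-1,7-bisphosphatase (-0.48), an enzyme of the regeneration phase, were lower too. Their calls were lost without control 2, control 3, salt 1, salt 2 or salt 3 (adjusted p up to 0.11) and without control 2, control 3, salt 1 or salt 2 (adjusted p up to 0.060), respectively. The large chain (-0.28, adjusted p = 0.092) and Rubisco activase (-0.04, adjusted p = 0.89) were not called. The large chain is encoded in the plastid, whose messages lack the long poly(A) tails that the library preparation selects. Photorespiration, with 30 names, held 1 higher and 0 lower with edgeR (3 and 4 at an unadjusted p under 0.05, 2 and 2 with DESeq2). With edgeR that was 3.33% called, against 16.3% over all names. The higher name was the mitochondrial Glycine dehydrogenase (decarboxylating), from 309, 280 and 303 to 442, 643 and 395 CPM (log2 fold change 0.73 ± 0.16, adjusted p = 0.016). Its call was lost without control 2 or control 3 (adjusted p up to 0.075). The most abundant members of the list, Serine--glyoxylate aminotransferase (0.12) and the glycolate oxidase GLO5 (-0.18), were not called.

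Among 18 chaperonins of the plastid and the mitochondrion, which fold other proteins, 7 were lower and 2 higher, and the lower ones numbered 2 to 8 with 1 library left out, 2 without control 2 or control 3, 3 without salt 2, 4 without control 1 or salt 1. The called share was 50%, against 16.3% over all names. The Rubisco large subunit-binding proteins are the plastid chaperonins that fold the large chain. The abundant alpha and beta names, both of entries from partial sequences, fell from 617, 639.6 and 603 to 527, 449.9 and 488 CPM (log2 fold change -0.35 ± 0.08, adjusted p = 0.022) and from 1426, 1464 and 1436 to 1121, 923 and 1225 CPM (log2 fold change -0.40 ± 0.11, adjusted p = 0.041). Their calls were lost without control 1, control 2, control 3 or salt 2 (adjusted p up to 0.075) and without any library other than salt 3 (adjusted p up to 0.11). A further alpha name, carried by a single unigene, went from 51.6, 152 and 88.2 to 3.98, 0 and 20.8 CPM (log2 fold change -3.53 ± 0.88, -5.45 without salt 3, adjusted p = 0.027), with a wide spread in both groups and a call lost without control 2, control 3 or salt 1 (adjusted p up to 0.096). Chaperonin 60 subunit beta 1 moved the other way, from 17.3, 15.2 and 16.1 to 23.4, 25.4 and 22.4 CPM (0.53).

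Ribosomal proteins were called in opposite directions for the organelles and the cytosol. Of 71 ribosomal proteins of the 30S and 50S type, which serve the plastid and in part the mitochondrion, 21 were lower and 1 higher (median log2 fold change -0.22), with a summed level of 9877 ± 467 CPM in G2-CK and 8067 ± 556 CPM in G2-S3 (SD, n = 3). Of 157 cytosolic 40S and 60S proteins, 29 were higher and 0 lower with edgeR (78 and 0 at an unadjusted p under 0.05, 41 and 0 with DESeq2, median 0.24), with sums of 14897 ± 663 and 18219.9 ± 1483 CPM, and 134 of the 157 were fitted above 0. Called names made up 31.0% of the 30S and 50S type and 18.5% of the cytosolic type, against 16.3% over all names (9.39% higher and 6.87% lower). The counts of both types depended strongly on single libraries. The lower 30S and 50S names numbered 2 to 28 with 1 library left out, 2 without control 2, 5 without salt 2, 7 without salt 1, 10 without control 1. The higher cytosolic names numbered 1 to 74 with 1 library left out, 1 without control 2, control 3, salt 1 or salt 2, 16 without control 1, 74 without salt 3. 30S ribosomal protein S6 fell from 38.0, 36.8 and 33.4 to 25.6, 23.5 and 27.3 CPM (log2 fold change -0.50 ± 0.09, adjusted p = 0.0085). 60S ribosomal protein L9 rose from 184, 153 and 168 to 248, 268 and 209 CPM (log2 fold change 0.52 ± 0.11, adjusted p = 0.016), lost without control 2, control 3, salt 1 or salt 2 (adjusted p up to 0.071).

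Mitochondrial respiration had 14 of 60 names higher and 2 lower, with a median of 0.27. The called share was 26.7%, against 16.3% over all names. The higher names numbered 3 to 35 with 1 library left out, 3 without control 2, 4 without salt 1 or salt 2, 5 without control 3, 8 without control 1, 35 without salt 3. Succinate dehydrogenase assembly factor 4, which helps to build complex II, rose from 13.8, 13.7 and 13.5 to 23.5, 24.4 and 17.8 CPM (log2 fold change 0.67 ± 0.12, adjusted p = 0.0078). The flavoprotein subunit of the same complex (0.68) was called with overlapping groups, lost without any library other than salt 3 (adjusted p up to 0.14). Alternative oxidase, the bypass of the cytochrome path that Swiss-Prot lists as ubiquinol oxidase, was not called under its mitochondrial names, with 0.20, adjusted p = 0.55 for name 1a and 0.43, adjusted p = 0.44 for name 1b. Ubiquinol oxidase 4, the terminal oxidase of the plastid, rose from 114, 124 and 113 to 184, 186 and 131 CPM (log2 fold change 0.50 ± 0.13, adjusted p = 0.033), lost without any library other than salt 3 (adjusted p up to 0.11).

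**Figure D3:**
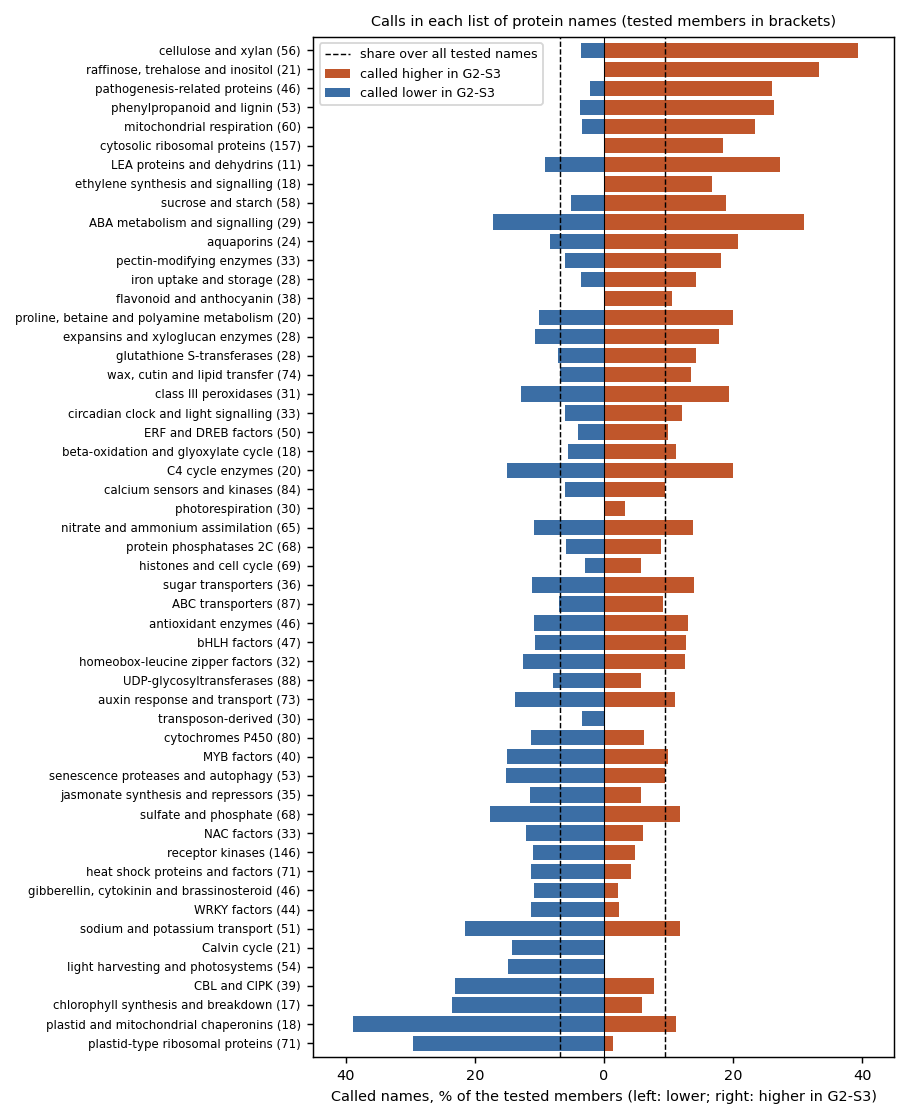
Share of the tested members of 53 lists of protein names that were called higher (right, orange) or lower (left, blue) in G2-S3, in percent, with the number of tested members in brackets and dashed lines at the shares over all tested names (9.39% and 6.87%). Lists are ordered by the share higher minus the share lower, with cellulose and xylan names at the top (22 of 56 higher, 2 lower) and 30S and 50S ribosomal proteins (21 of 71 lower, 1 higher) and chaperonins (7 of 18 lower, 2 higher) near the bottom.

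Sodium and potassium transport held more decreases than increases, with 11 of 51 names lower and 6 higher. The called share was 33.3%, against 16.3% over all tested names (9.39% higher and 6.87% lower). The lower names numbered 1 to 13 with 1 library left out, 1 without salt 1 or salt 2, 3 without control 2, 4 without control 1, 5 without control 3. HKT transporters carry sodium, or sodium with potassium, across the plasma membrane. Probable cation transporter HKT6 fell from 28.1, 30.9 and 20.4 to 3.04, 3.86 and 6.15 CPM (log2 fold change -2.31 ± 0.22, adjusted p = 0.00075) and was at 0.340 ± 0.589 CPM in G2-S4. Probable cation transporter HKT9 went in the other direction, from 3.51, 4.33 and 3.14 to 7.14, 7.63 and 7.64 CPM (log2 fold change 0.71 ± 0.11, adjusted p = 0.0049), with 17.3 CPM in G2-S4. Cation transporter HKT1 fell from 47.1, 53.7 and 45.5 to 35.8, 31.0 and 40.3 CPM (log2 fold change -0.42 ± 0.12, adjusted p = 0.042), lost without any library other than salt 3 (adjusted p up to 0.14), and HKT4 (-0.07) and HKT7 (0.07) were not called.

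Sodium/hydrogen exchangers move sodium or potassium against protons, number 2 at the tonoplast. Sodium/hydrogen exchanger 2 fell from 299, 170.1 and 159 to 68.2, 72.0 and 124 CPM (log2 fold change -1.21 ± 0.28, adjusted p = 0.019), a call lost without salt 1 or salt 2 (adjusted p up to 0.077). Exchanger 1, also of the tonoplast, had 117, 67.3 and 58.7 CPM in G2-CK and 35.4, 36.2 and 62.0 CPM in G2-S3 and missed the threshold (log2 fold change -0.85 ± 0.28, adjusted p = 0.067). For both names control replicate 1 was the highest library of all. Exchanger 7, known in Arabidopsis as the plasma membrane antiporter SOS1, had a log2 fold change of -0.01 ± 0.08 and was not called. Probable potassium transporter 9 rose from 22.04, 21.9 and 25.7 to 63.7, 71.8 and 42.6 CPM (log2 fold change 1.32 ± 0.19, adjusted p = 0.0032).

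CBL-interacting protein kinases (CIPKs) relay calcium signals to ion transporters, and number 24 is the SOS2 kinase that activates SOS1. Of 39 CBL and CIPK names, 9 were lower (6 to 10 with 1 library left out) and 3 higher (1 to 3 with 1 library left out, 1 without control 2 or control 3). That was 30.8% called, against 16.3% over all names. CBL-interacting protein kinase 22 was listed at 5.65, 4.72 and 5.51 CPM in G2-CK and in 0 of the 3 salt libraries, which makes it at least 8.75-fold lower against the sum of the listing limits of its unigenes (adjusted p = 4.5e-05). CBL-interacting protein kinase 16 fell from 54.8, 57.2 and 71.7 to 17.5, 27.2 and 25.8 CPM (log2 fold change -1.38 ± 0.17, adjusted p = 0.0019). CBL-interacting protein kinase 1 rose from 74.1, 86.2 and 86.7 to 191, 207 and 169 CPM (log2 fold change 1.15 ± 0.12, adjusted p = 0.0011). The change of CBL-interacting protein kinase 24 was smaller, from 73.2, 71.4 and 66.0 to 79.4, 90.2 and 84.8 CPM (log2 fold change 0.28 ± 0.07, adjusted p = 0.026), and its call was lost without control 2, control 3 or salt 2 (adjusted p up to 0.10).

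Aquaporins, the water channels, had 5 of 24 names higher and 2 lower, 29.2% called against 16.3% over all names. The higher names numbered 2 to 8 with 1 library left out, 2 without salt 1, 3 without control 2 or control 3, 8 without salt 3. Aquaporin PIP1-2 of the plasma membrane rose from 40.3, 46.3 and 45.7 to 144, 174 and 121 CPM (log2 fold change 1.73 ± 0.14, adjusted p = 0.00034), and Aquaporin NIP2-2, a silicon channel in rice, from 19.9, 12.8 and 19.3 to 57.7, 85.3 and 36.5 CPM (log2 fold change 1.79 ± 0.30, adjusted p = 0.0063). The lower names, Aquaporin PIP2-5 (-1.501) and Aquaporin PIP2-3 (-1.16), had under 9 CPM in each library, and their calls were lost without control 2, control 3, salt 1 or salt 2 (adjusted p up to 0.13) and without control 2, control 3, salt 1 or salt 2 (adjusted p up to 0.077).

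Among the enzymes of compatible osmolytes and polyamines, 4 of 20 names were higher (2 to 7 with 1 library left out, 2 without control 2, control 3, salt 1 or salt 2, 7 without salt 3) and 2 lower (1 to 3, 1 without any library other than salt 3). Called names made up 30% of this list, against 16.3% over all names. Arginine decarboxylase 1, which opens a path to the polyamine putrescine, rose from 45.7, 34.8 and 38.4 to 399, 617 and 241 CPM (log2 fold change 3.37 ± 0.33, adjusted p = 0.00088), while the other arginine decarboxylase names were not called. Delta-1-pyrroline-5-carboxylate synthase, the first enzyme of proline synthesis from glutamate, lay at 135, 145 and 168 CPM in G2-CK and 361, 409 and 252 CPM in G2-S3 (log2 fold change 1.18 ± 0.17, adjusted p = 0.0032) and at 1623 ± 114 CPM in G2-S4. All salt libraries exceeded all controls for both enzymes. Proline dehydrogenase 1, which starts the breakdown of proline, had 97.1, 46.9 and 50.5 CPM in G2-CK and 13.5, 24.4 and 35.4 CPM in G2-S3 (log2 fold change -1.38 ± 0.40, adjusted p = 0.045), a call lost without any library other than salt 3 (adjusted p up to 0.13). Proline dehydrogenase 2 missed the threshold (-1.06, adjusted p = 0.071).

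Betaine aldehyde dehydrogenase, the last step to glycine betaine, was split. Name 2 rose from 173, 191 and 208 to 345, 394 and 212 CPM (log2 fold change 0.73 ± 0.19, adjusted p = 0.033), a call lost without any library other than salt 3 (adjusted p up to 0.11), and name 1 fell from 78.4, 75.1 and 84.7 to 56.3, 54.3 and 56.6 CPM (log2 fold change -0.51 ± 0.07, adjusted p = 0.0030). Raffinose, trehalose and inositol metabolism had 7 of 21 names higher and 0 lower with edgeR (8 and 1 at an unadjusted p under 0.05, 7 and 1 with DESeq2). With edgeR that was 33.3% higher, against 9.39% over all names. The higher names numbered 1 to 8 with 1 library left out, 1 without control 2, 3 without control 3, salt 1 or salt 2. Galactinol synthase 1, which commits galactose to raffinose sugars, lay at 69.7, 47.3 and 38.5 CPM in G2-CK and 119, 125 and 216 CPM in G2-S3 (log2 fold change 1.57 ± 0.30, adjusted p = 0.010). Galactinol synthase 2 lay at 11.6, 7.93 and 9.63 CPM in G2-CK and 23.6, 21.6 and 71.0 CPM in G2-S3 (log2 fold change 2.00 ± 0.45, 1.22 without salt 3, adjusted p = 0.019). Here G2-S3 replicate 3 was the highest library, unlike for most increases, and the calls were lost without control 2 (adjusted p up to 0.053) and without control 2 or control 3 (adjusted p up to 0.082).

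Sucrose and starch metabolism had 11 of 58 names higher (4 to 11 with 1 library left out, 4 without control 2, 5 without salt 2, 6 without control 1, 7 without control 3 or salt 1) and 3 lower. Called names made up 24.1% here and 25% of the sugar transporters, against 16.3% over all names (9.39% higher and 6.87% lower). ADP-glucose pyrophosphorylase makes the substrate of starch synthesis, and its large subunit 1 rose from 15.8, 21.6 and 24.3 to 151, 258 and 42.7 CPM (log2 fold change 2.82 ± 0.54, 2.19 without salt 2, adjusted p = 0.010), lost without control 2 (adjusted p up to 0.051). Soluble starch synthase 2-2 rose from 11.0, 11.9 and 17.3 to 36.5, 37.1 and 25.4 CPM (log2 fold change 1.30 ± 0.21, adjusted p = 0.0059). Among 36 sugar transporters, 5 were higher and 4 lower (0 to 6 with 1 library left out, 0 without control 2 or salt 1, 1 without control 3 or salt 2, 2 without control 1), with increases of Bidirectional sugar transporter SWEET4 (log2 fold change 1.62 ± 0.13, adjusted p = 0.00034) and the tonoplast transporter SWEET16 (log2 fold change 1.37 ± 0.14, adjusted p = 0.0011). Sucrose transport protein SUT1, which loads sucrose into the phloem, had 820.3, 738 and 692 CPM in G2-CK and 786, 796 and 687 CPM in G2-S3 and was not called (0.01, adjusted p = 0.95).

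ABA metabolism and signalling had 9 of 29 names higher (5 to 11 with 1 library left out, 5 without control 2) and 5 lower (1 to 6 with 1 library left out, 1 without salt 1 or salt 2, 2 without control 1 or control 3, 3 without control 2). That was 48.3% called, against 16.3% over all names. ABA binds PYR/PYL receptors, which then block protein phosphatases 2C and so free SnRK2 kinases. Abscisic acid receptor PYL8 rose from 209, 182 and 194 to 312, 347 and 391 CPM (log2 fold change 0.84 ± 0.10, adjusted p = 0.0016). Receptor PYL5 fell from 4.97, 5.92 and 5.94 to 1.67, 1.05 and 0.891 CPM (log2 fold change -1.98 ± 0.28, adjusted p = 0.0033) and PYL4 from 34.5, 25.2 and 25.9 to 15.01, 16.5 and 17.2 CPM (log2 fold change -0.80 ± 0.19, adjusted p = 0.021), the latter lost without control 1, salt 1 or salt 2 (adjusted p up to 0.080). Protein ABSCISIC ACID-INSENSITIVE 5, a bZIP factor downstream of the receptors, rose from 7.63, 7.24 and 7.29 to 12.2, 14.9 and 13.1 CPM (log2 fold change 0.88 ± 0.12, adjusted p = 0.0028). 

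For ABA turnover, 9-cis-epoxycarotenoid dioxygenase 1, the enzyme that commits carotenoids to ABA, had 4.40, 3.99 and 3.35 CPM in G2-CK and 5.22, 3.52 and 9.59 CPM in G2-S3 with overlapping groups and was not called (0.49, adjusted p = 0.26). ABA 8'-hydroxylases inactivate the hormone. Abscisic acid 8'-hydroxylase 3 rose from 10.4, 7.24 and 6.83 to 14.6, 25.7 and 14.5 CPM (log2 fold change 1.15 ± 0.25, adjusted p = 0.017) and Abscisic acid 8'-hydroxylase 1 fell from 23.2, 18.6 and 27.9 to 13.4, 16.1 and 16.6 CPM (log2 fold change -0.59 ± 0.15, adjusted p = 0.027). Their calls were lost without control 2, control 3 or salt 2 (adjusted p up to 0.072) and without control 1, control 3, salt 1 or salt 2 (adjusted p up to 0.097). Of 68 protein phosphatases 2C, 6 were higher (3 to 8 with 1 library left out, 3 without control 2) and 4 lower (0 to 9 with 1 library left out, 0 without salt 1 or salt 2, 1 without control 1 or control 2, 2 without control 3, 9 without salt 3), close to the shares over all names. Probable protein phosphatase 2C 51 rose from 3.88, 1.66 and 2.59 to 9.37, 14.3 and 7.60 CPM (log2 fold change 1.69 ± 0.24, adjusted p = 0.0033), number 30 from 20.5, 14.5 and 17.8 to 37.7, 47.7 and 33.1 CPM (1.14) and number 14 from 55.1, 63.0 and 61.5 to 120.0, 121 and 103 CPM (0.94).

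Among the other hormone lists, calls for ethylene, for jasmonate and for gibberellin, cytokinin and brassinosteroid were near the 16.3% over all names. The auxin list had a larger share, 24.7%. Ethylene had 3 of 18 names higher (1 to 4 with 1 library left out, 1 without control 2, control 3 or salt 2) and 0 lower with edgeR (4 and 2 at an unadjusted p under 0.05, 3 and 1 with DESeq2). Jasmonate had 2 of 35 higher (1 to 4 with 1 library left out, 1 without control 2, control 3, salt 1 or salt 2, 4 without control 1) and 4 lower (1 to 5 with 1 library left out, 1 without salt 1 or salt 2, 2 without control 3), and gibberellin, cytokinin and brassinosteroid had 1 of 46 higher and 5 lower (4 to 10 with 1 library left out, 10 without salt 3). 1-aminocyclopropane-1-carboxylate oxidase 1, which releases ethylene, rose from 56.0, 39.3 and 39.1 to 139, 93.9 and 56.5 CPM (log2 fold change 1.10 ± 0.28, adjusted p = 0.028), lost without control 2, control 3, salt 1 or salt 2 (adjusted p up to 0.11). The name of this enzyme without a number was more abundant and was not called (0.12, adjusted p = 0.85). It had 158, 99.0 and 71.0 CPM in G2-CK and 85.8, 116 and 156 CPM in G2-S3. Allene oxide synthase 2 of jasmonate synthesis rose from 1.98, 2.21 and 1.57 to 9.62, 10.2 and 5.86 CPM (log2 fold change 1.64 ± 0.23, adjusted p = 0.0032). The jasmonate repressor Protein TIFY 10b fell from 204, 121 and 137 to 77.7, 85.3 and 98.3 CPM (log2 fold change -0.82 ± 0.18, adjusted p = 0.019), lost without salt 1 or salt 2 (adjusted p up to 0.074). For cytokinin, the activating enzyme LOG (-1.41, adjusted p = 0.0020), the degrading Cytokinin dehydrogenase 4 (-1.14, adjusted p = 0.0050) and Pseudo histidine-containing phosphotransfer protein 5, an inhibitor of the signal relay (-1.67, adjusted p = 0.0050), all fell. Auxin response and transport held 8 higher (4 to 13 with 1 library left out, 4 without control 2 or control 3, 13 without salt 3) and 10 lower of 73 names (2 to 18 with 1 library left out, 2 without salt 1, 3 without control 3, 4 without salt 2, 5 without control 2, 18 without salt 3).

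**Figure D4:**
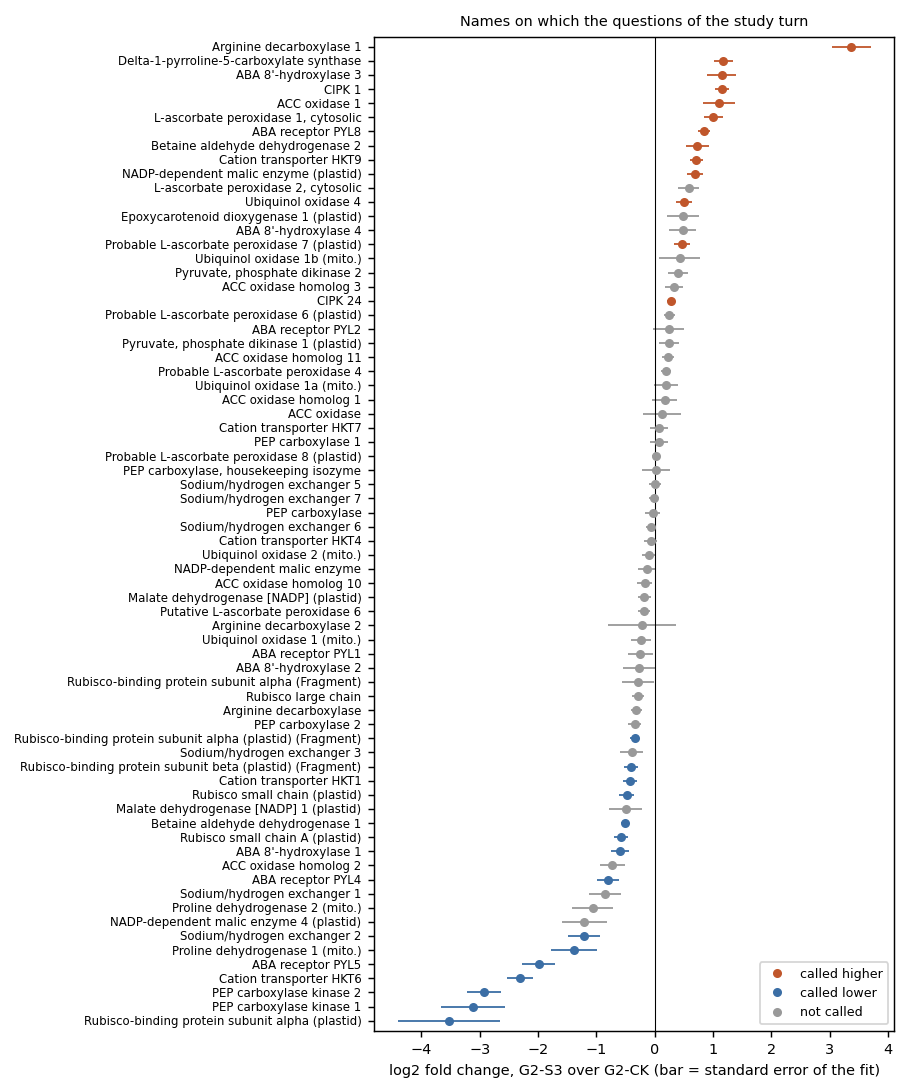
Log2 fold change of G2-S3 over G2-CK with its SE for 70 names on which the questions of the study turn, with names called higher in orange (13), called lower in blue (15) and not called in grey; protein phosphatases 2C and names with group means summing to 2 CPM or less were left out. Arginine decarboxylase 1 stands at the top (3.37), the kinases of PEP carboxylase (-2.93 and -3.11) near the bottom, and most names lie close to 0.

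Transport and assimilation of nitrogen had 9 of 65 names higher (8 to 11 with 1 library left out) and 7 lower (2 to 15 with 1 library left out, 2 without control 1, 3 without control 2, control 3 or salt 1, 15 without salt 3). The called share was 24.6%, against 16.3% over all names (9.39% higher and 6.87% lower). Beside nitrate reductase, the next enzyme of the path, Ferredoxin--nitrite reductase, rose from 14.0, 12.8 and 17.0 to 75.6, 107 and 44.1 CPM (log2 fold change 2.09 ± 0.28, adjusted p = 0.0023). High-affinity nitrate transporter 2.3 rose from 2.62, 1.51 and 2.33 to 7.999, 4.99 and 9.51 CPM (log2 fold change 1.75 ± 0.22, adjusted p = 0.0018). All salt libraries lay above all controls in each of them. The enzymes that take up the ammonium, plastid glutamine synthetase (-0.08, adjusted p = 0.65) and ferredoxin-dependent glutamate synthase (0.42, adjusted p = 0.057), were not called.

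In sulfur assimilation, Probable 5'-adenylylsulfate reductase 1, which reduces activated sulfate, rose from 30.8, 26.9 and 31.0 to 158, 179.6 and 112 CPM (log2 fold change 2.27 ± 0.18, adjusted p = 0.00034). Probable sulfate transporter 3.5 was listed in 0 of the 3 controls and lay at 50.3, 89.7 and 3.18 CPM in G2-S3, at least 11.3-fold higher against the summed listing limits (adjusted p = 0.016), a call lost without control 1, control 2, control 3 or salt 2 (adjusted p up to 0.071). In the list of sulfate and phosphate names 8 of 68 were higher (2 to 14 with 1 library left out, 2 without control 2, control 3 or salt 1, 3 without salt 2, 5 without control 1, 14 without salt 3) and 12 lower (5 to 13 with 1 library left out, 5 without control 2, 6 without salt 1, 7 without salt 2), among the lower the SPX domain-containing membrane protein OsI_08463 (-1.72, adjusted p = 0.011), of a family that senses phosphate. That was 29.4% called, against 16.3% over all names.

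In the list of iron uptake and storage 4 of 28 names were higher (2 to 7 with 1 library left out, 2 without control 3, salt 1 or salt 2, 7 without salt 3) and 1 lower (0 to 1 with 1 library left out, 0 without control 2, control 3, salt 1 or salt 2), a called share of 17.9% and so near that over all names. Transcription factor bHLH100, counted with the bHLH factors and known to activate iron uptake in Arabidopsis, lay at 462, 611 and 572 CPM in G2-CK and 68.3, 4.11 and 128 CPM in G2-S3 (log2 fold change -3.01 ± 0.76, -3.87 without salt 3, adjusted p = 0.028), with a spread of more than an order of magnitude within G2-S3. Zinc finger protein BRUTUS, which limits the iron deficiency response, fell from 502, 794 and 789 to 235, 185 and 428 CPM (log2 fold change -1.29 ± 0.29, adjusted p = 0.018). Their calls were lost without control 2, control 3 or salt 1 (adjusted p up to 0.094) and without control 2, control 3, salt 1 or salt 2 (adjusted p up to 0.073). The metal transporter YSL13 rose from 66.5, 74.9 and 68.5 to 94.4, 100.2 and 116 CPM (log2 fold change 0.57 ± 0.09, adjusted p = 0.0052), and Ferritin-1, the plastid iron store, from 110.4, 117 and 102 to 222, 178 and 124 CPM (log2 fold change 0.67 ± 0.18, adjusted p = 0.037), lost without any library other than salt 3 (adjusted p up to 0.12).

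Cellulose and xylan names had the highest share of higher calls among the 53 lists, and the salt libraries differed strongly in several of them. Of 56 such names 22 were higher (12 to 24 with 1 library left out, 12 without control 2, 14 without control 3, salt 1 or salt 2) and 2 lower, and of 53 phenylpropanoid and lignin names 14 were higher (7 to 17 with 1 library left out, 7 without control 2, control 3, salt 1 or salt 2) and 2 lower. The medians were 0.27 in both lists, against 0.01 over all tested names. Called names made up 42.9% of the former list and 30.2% of the latter, against 16.3% over all names. Grass secondary walls are made by the cellulose synthase subunits 4, 7 and 9. Cellulose synthase A catalytic subunit 4 lay at 4.72, 2.90 and 4.79 CPM in G2-CK and 42.9, 60.1 and 3.904 CPM in G2-S3, subunit 7 at 2.10, 0.464 and 0.297 CPM in G2-CK and 35.1, 58.4 and 0.212 CPM in G2-S3, and subunit 9 at 1.41, 0.503 and 1.78 CPM in G2-CK and 29.6, 41.6 and 0.849 CPM in G2-S3. Replicates 1 and 2 were far above all controls, and replicate 3 lay among or below them. The log2 fold changes were 2.96 ± 0.71, 4.08 ± 0.96 and 3.79 ± 0.90, and the adjusted p was 0.023, 0.022 and 0.022. Without salt 2 the values were 2.36, 3.28 and 3.14. Each of these calls was lost without any library other than salt 3, with an adjusted p of at most 0.094 in these fits.

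Laccase-10, an oxidase of lignin polymerization, had the same distribution, with 5.21, 3.13 and 4.16 CPM in G2-CK and 73.5, 107 and 3.82 CPM in G2-S3 (log2 fold change 3.48 ± 0.80, 2.83 without salt 2, adjusted p = 0.020), lost without any library other than salt 3 (adjusted p up to 0.082). COBRA-like protein 6, of a family that guides cellulose deposition, was listed in 1 control library and was at 26.6, 43.0 and 0 CPM in G2-S3 (log2 fold change 4.24 ± 0.97, 3.47 without salt 2, adjusted p = 0.019), lost without any library other than salt 3 (adjusted p up to 0.081). In all, 11 names whose mean over G2-S3 replicates 1 and 2 reached 5 CPM were at least 4 times every control there and not above all controls in replicate 3, and 9 of them were called. The same rule applied to replicate 3 alone found 0 names. Besides the cellulose synthases, Laccase-10 and COBRA-like protein 6, the 11 were Laccase-12, UDP-glucuronate:xylan alpha-glucuronosyltransferase 2, which decorates xylan, Protein DETOXIFICATION 29, Heparanase-like protein 3, Chemocyanin and Subtilisin-like protease SBT2.4. This set was chosen after its values were seen and carries no test of its own. The log2 fold change of Laccase-12 was 2.80, and 2.20 without salt 2, where its call was lost (adjusted p = 0.095).

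**Figure D5:**
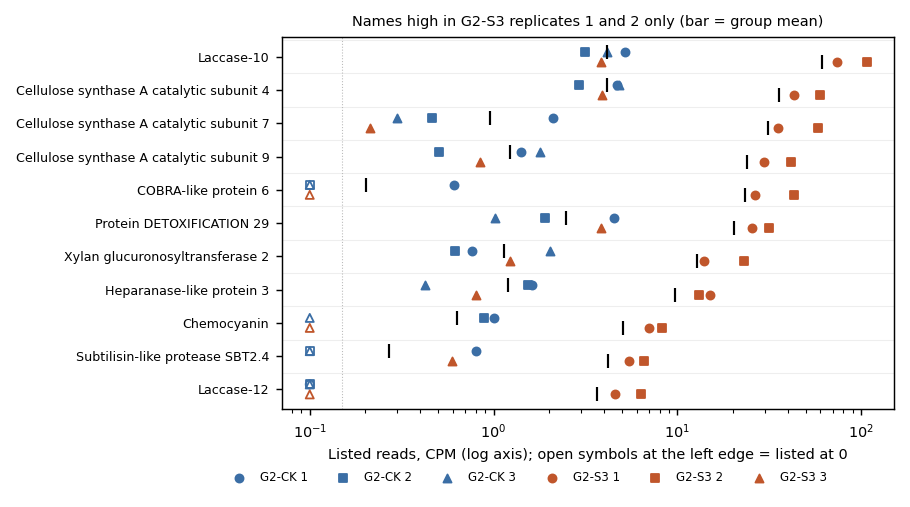
CPM of listed reads on a log axis for the 11 names that were at least 4 times every control in G2-S3 replicates 1 and 2 and not above all controls in replicate 3, drawn as in the plot of the largest changes. Circles and squares of G2-S3 lie at the right, and its triangles lie among the blue control symbols, for example 3.82 CPM for Laccase-10.

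In G2-S4 the cellulose synthases and laccases of this set were near or below the controls, with 3.57 ± 0.478 CPM for Laccase-10 and 3.35 ± 0.362 CPM for cellulose synthase subunit 4 (SD, n = 3), whereas Protein DETOXIFICATION 29 was at 199 ± 8.85 CPM and Subtilisin-like protease SBT2.4 at 21.8 ± 1.64 CPM. Names that mark vascular and lignifying tissue were cellulose synthases 4, 7 and 8, laccases, COBRA-like and sieve element proteins, which overlap the lists above. Cellulose synthases 4 and 7, Laccase-10, Laccase-12 and COBRA-like protein 6 of the split set are among them, so their rise is not a separate result. Of 18 tested, 13 were higher and 0 lower with edgeR (15 and 0 at an unadjusted p under 0.05, 13 and 0 with DESeq2), where 9.39% of all tested names were higher. This count was not repeated with libraries left out. All 22 listed names of this kind summed to 139 to 168 CPM in G2-CK, 638 and 775 CPM in G2-S3 replicates 1 and 2 and 285 CPM in replicate 3. The part of a different share of vascular tissue in the sampled leaf pieces was not tested. Not every wall name followed this split. Laccase-15 rose from 15.5, 7.97 and 16.3 to 96.9, 97.6 and 50.3 CPM (log2 fold change 2.57 ± 0.34, adjusted p = 0.0022) and Cytochrome P450 84A1, the ferulate 5-hydroxylase of syringyl lignin, from 7.02, 6.97 and 6.96 to 15.999, 15.6 and 27.1 CPM (log2 fold change 1.48 ± 0.27, adjusted p = 0.0092), with replicate 3 the highest library in the latter.

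Defence proteins of the apoplast were often higher. Of 46 pathogenesis-related proteins 12 were higher (5 to 18 with 1 library left out, 5 without control 2) and 1 lower, with a median log2 fold change of 0.38. The called share was 28.3% here and 32.3% for class III peroxidases, against 16.3% over all names (9.39% higher and 6.87% lower). For the antioxidant enzymes given below it was 23.9%, and for glutathione S-transferases 21.4%. Osmotin-like protein rose from 5.73, 5.65 and 7.13 to 42.6, 56.5 and 13.7 CPM (log2 fold change 2.61 ± 0.43, adjusted p = 0.0057). Of 31 class III peroxidases, 6 were higher (5 to 10 with 1 library left out, 10 without salt 3) and 4 lower, and Peroxidase 2 rose from 15.1, 11.0 and 23.96 to 99.4, 151 and 84.5 CPM (log2 fold change 2.71 ± 0.33, adjusted p = 0.0017). Inside the cell, 6 of 46 antioxidant enzymes were higher (1 to 12 with 1 library left out, 1 without salt 1 or salt 2, 2 without control 2, 3 without control 1 or control 3, 12 without salt 3) and 5 lower (2 to 5 with 1 library left out, 2 without control 2, control 3 or salt 2, 3 without control 1 or salt 1). L-ascorbate peroxidase 1 of the cytosol, which reduces hydrogen peroxide with ascorbate, rose from 137, 116 and 104 to 261, 279 and 182 CPM (log2 fold change 1.01 ± 0.16, adjusted p = 0.0057), and the plastid copper-zinc superoxide dismutase fell from 229, 226 and 212 to 145, 97.8 and 156 CPM (log2 fold change -0.74 ± 0.15, adjusted p = 0.013). Glutathione S-transferase 3 rose from 75.9, 64.3 and 69.6 to 147, 166 and 108 CPM (log2 fold change 1.00 ± 0.15, adjusted p = 0.0039), 1 of 4 higher names among 28 transferases, of which 2 were lower. The higher ones numbered 2 to 5 with 1 library left out, 2 without control 2, control 3, salt 1 or salt 2.

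Several proteases of cell death and senescence fell, beside SAG39 and CEP1. Metacaspase-1 fell from 273, 252 and 250.3 to 121, 109.6 and 94.1 CPM (log2 fold change -1.24 ± 0.11, adjusted p = 0.00061). Metacaspase-9 was at 2.87, 1.82 and 1.31 CPM in G2-CK and listed in 0 of the 3 salt libraries, at least 4.39-fold lower against the summed listing limits (adjusted p = 0.0032). In the list of senescence proteases and autophagy 8 of 53 names were lower (5 to 10 with 1 library left out, 5 without control 2, control 3, salt 1 or salt 2) and 5 higher (2 to 9 with 1 library left out, 2 without control 2, 3 without control 3, salt 1 or salt 2, 9 without salt 3), and autophagy-related protein 8C was not called (-0.24, adjusted p = 0.082). The called share of this list was 24.5%, against 16.3% over all names. The 5 markers of senescing leaves summed to 2934 to 3632 CPM in G2-CK and 1444 to 1791 CPM in G2-S3, most of it SAG39. Of these 5, only SAG39 was called, so the lower sum is largely that of 1 name. At an unadjusted p under 0.05 and with DESeq2 there was likewise 1 lower and 0 higher.

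In the families of transcription factors 13.6% to 25% of the members were called, where 16.3% of all names were called. NAC factors had 2 higher and 4 lower of 33, WRKY factors 1 and 5 of 44, MYB factors 4 and 6 of 40, bHLH factors 6 and 5 of 47, ERF and DREB factors 5 and 2 of 50, and homeobox-leucine zipper factors 4 and 4 of 32. Without salt 3 there were 10 lower NAC, 9 lower WRKY, 14 lower MYB and 12 higher bHLH factors, and each of the other 5 libraries, when left out, lowered 1 or more of these counts by over 1.5 times, for example to 2 higher bHLH factors without control 2. Probable WRKY transcription factor 72, with the lowest fitted value of all called names, was at 2.62, 2.79 and 3.82 CPM in G2-CK and 0, 0 and 0.340 CPM in G2-S3 (log2 fold change -3.73 ± 0.28, adjusted p = 0.00029). Ethylene-responsive transcription factor ERF034 rose from 1.49, 1.01 and 0.933 to 5.22, 5.91 and 3.48 CPM (log2 fold change 1.65 ± 0.21, adjusted p = 0.0019), Transcription factor bHLH63 from 10.1, 9.52 and 8.95 to 31.6, 34.0 and 20.8 CPM (1.60), and Homeobox-leucine zipper protein HOX20 from 36.1, 36.6 and 40.2 to 71.4, 68.2 and 68.1 CPM (0.88). NAC domain-containing protein 77 fell from 6.30, 5.22 and 3.69 to 1.80, 1.80 and 1.49 CPM (-1.56) and Heat stress transcription factor A-2d, an activator of heat shock genes, from 39.2, 51.2 and 48.4 to 6.54, 9.52 and 13.9 CPM (-2.20). Phytochrome B, the red light receptor, stood out among 33 clock and light names, with 71.8, 64.7 and 73.4 CPM in G2-CK and 137, 141 and 136 CPM in G2-S3 (log2 fold change 0.98 ± 0.07, adjusted p = 0.00029).

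Of 146 receptor kinases 23 were called, 15.8% and so near the share over all names, with 16 lower (4 to 36 with 1 library left out, 4 without salt 1 or salt 2, 6 without control 2 or control 3, 7 without control 1, 36 without salt 3) and 7 higher (4 to 7 with 1 library left out, 4 without control 2, control 3 or salt 1). G-type lectin S-receptor-like serine/threonine-protein kinase At1g61420 fell from 21.6, 21.5 and 19.6 to 5.48, 5.95 and 7.17 CPM (log2 fold change -1.75 ± 0.24, adjusted p = 0.0030), and its neighbour in name, At1g61390, rose from 3.23, 2.09 and 2.16 to 6.29, 8.09 and 7.04 CPM (1.498).

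Late embryogenesis abundant (LEA) proteins and dehydrins, hydrophilic proteins known from drying seeds and leaves, had 3 of 11 names higher (0 to 5 with 1 library left out, 0 without control 1 or salt 1, 1 without control 2, control 3 or salt 2, 5 without salt 3) and 1 lower. That was 36.4% called, against 16.3% over all names. Dehydrin DHN1 lay at 0.121, 0.155 and 0.594 CPM in G2-CK and 1.88, 2.14 and 1.99 CPM in G2-S3 (log2 fold change 2.67 ± 0.61, 3.45 without control 3, adjusted p = 0.020), with 62.1 ± 31.4 CPM in G2-S4. Dehydrin COR410 rose from 182, 222 and 198 to 354, 266 and 306 CPM (log2 fold change 0.62 ± 0.14, adjusted p = 0.020). Their calls were lost without control 1, control 2, salt 1 or salt 2 (adjusted p up to 0.080) and without control 1, control 3 or salt 1 (adjusted p up to 0.074). Abscisic stress-ripening protein 2 had 6449, 5115 and 4538 CPM in G2-CK and 6322, 6999.5 and 3547 CPM in G2-S3 and was not called (0.07, adjusted p = 0.88), with replicate 3 below every other library.

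Among enzymes of specialized and hormone metabolism, Cytochrome P450 94C1, which oxidizes the active jasmonate in Arabidopsis, fell from 16.6, 9.64 and 11.6 to 2.01, 2.22 and 5.09 CPM (log2 fold change -1.49 ± 0.24, adjusted p = 0.0054) and UDP-glycosyltransferase 73C3 from 10.9, 6.19 and 3.73 to 0.770, 0.796 and 1.57 CPM (log2 fold change -2.73 ± 0.44, adjusted p = 0.0053). ABC transporter G family member 14, a cytokinin exporter in Arabidopsis, fell from 125, 86.0 and 98.9 to 24.2, 49.8 and 41.3 CPM (log2 fold change -1.40 ± 0.24, adjusted p = 0.0067). Polygalacturonase ADPG1, which cuts pectin where organs separate, fell from 19.9, 19.3 and 19.6 to 8.81, 5.83 and 4.58 CPM (log2 fold change -1.48 ± 0.19, adjusted p = 0.0020), below every control in all salt libraries as in the preceding names. These decreases come from lists with calls in both directions. Cytochromes P450 had 5 of 80 names higher and 9 lower (2 to 9 and 3 to 12 with 1 library left out). UDP-glycosyltransferases had 5 and 7 of 88 (0 to 7 and 2 to 11) and ABC transporters 8 and 6 of 87 (2 to 11 and 3 to 11). Called shares were 17.5%, 13.6% and 16.1%, against 16.3% over all names. Pectin-modifying enzymes had 6 of 33 higher and 2 lower (0 to 10 and 1 to 2), 24.2% called.

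Some lists stayed near or under the 16.3% called over all names (9.39% higher and 6.87% lower). The called share was 10.5% for flavonoid and anthocyanin synthesis, 8.70% for histones and the cell cycle and 3.33% for transposon-derived names. Flavonoid and anthocyanin synthesis had 4 of 38 names higher and 0 lower with edgeR (7 and 4 at an unadjusted p under 0.05, 5 and 2 with DESeq2), and the higher names numbered 1 to 10 with 1 library left out, 1 without control 2, 2 without control 3, salt 1 or salt 2, 10 without salt 3. Its entry enzyme, Chalcone synthase C2, lay at 359, 135 and 54.1 CPM in G2-CK and 400.4, 382 and 77.9 CPM in G2-S3 and was not called (0.65, adjusted p = 0.60). Control 1 was as high as salt 1 and salt 2 here, and salt 3 as low as the other controls. Transposon-derived names, 30 in number, had 1 lower and 0 higher with edgeR (8 and 1 at an unadjusted p under 0.05, 2 and 0 with DESeq2). In the list of histones and the cell cycle 4 of 69 names were higher (0 to 4 with 1 library left out, 0 without control 2, 1 without control 1 or salt 2, 2 without control 3 or salt 1) and 2 lower, among the higher Cyclin-D3-1, which drives entry into the division cycle, from 25.7, 21.5 and 25.6 to 39.8, 42.0 and 36.1 CPM (log2 fold change 0.63 ± 0.12, adjusted p = 0.0099), lost without control 2 (adjusted p up to 0.050). Also higher was Cyclin-dependent protein kinase inhibitor SMR1 (0.50, adjusted p = 0.039), lost without any 1 of the 6 libraries (adjusted p up to 0.12). Histone H1 was among the lower. The list summed to a mean of 5432 CPM in G2-CK and 4244 CPM in G2-S3. Marker names of dividing cells, such as core histones, summed to 2182 to 2535 CPM in G2-CK and 1720 to 2312 CPM in G2-S3. Of 25 tested, 1 was higher and 0 lower with edgeR (1 and 3 at an unadjusted p under 0.05).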

How the data were processed

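RNA of leaves was sequenced with a poly(A)-selected protocol. The authors used Trinity for de novo assembly and Corset to cluster the transcripts, and obtained counts per library with bowtie2 and RSEM. The deposited tables list, per library, an expected count and an FPKM per unigene beside its annotations, and end at 0.3 FPKM. In the deposited tables FPKM is scaled by unigene length and sequencing depth, and it served here only to find the effective length of a unigene and so the reads that 0.3 FPKM would be (median 2.11 reads for unlisted unigenes). For the test an unlisted unigene was set to this limit, which concerned 24.1% of the unigene and library pairs.

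Expected counts of unigenes with the same protein name (95743 unigenes, median 5 and at most 498 per name) were summed and rounded to whole numbers. Names with low counts were removed with filterByExpr (minimum count 10), libraries were scaled by TMM, and all 9 libraries were fitted with edgeR 4.0.16 (glmQLFit, glmQLFTest) in R 4.3.3, with the contrast G2-S3 against G2-CK and Benjamini-Hochberg adjustment at 0.05. The scripts were tested on simulated data. CPM are listed reads scaled by the TMM-adjusted library size. Library totals of 23.01 to 25.69 M mapped read pairs set the counting precision, and the replicate spread set the rest. An exact permutation test of a single value could not go below p = 0.10 with 3 against 3.

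Alternatives were DESeq2 1.42.0, RLE factors, no filter, other values for unlisted unigenes, a fit of 6 libraries, the replicate number as a block, a limit on the fold change, the most abundant unigene of each name, and leaving out each library in turn.

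The 446 names looked at one by one were the 12 largest increases and decreases among called names of at least 5 CPM whose groups did not overlap, the 5 called names with the largest gain and the 5 with the largest loss in mean CPM, up to 4 called and 2 abundant uncalled members of each of 53 lists, and names on which the study's questions turn. A member of the split set and a name given as an extreme were chosen after their values were seen. The names and lists were chosen with earlier results of these data known, and some search terms were narrowed after values were seen: iron-sulfur proteins, KIAA names, alpha and gamma carbonic anhydrases, isopropylmalate synthase and acylglycerol acyltransferases were removed from lists that their words had matched, Rubisco-binding proteins were moved to the chaperonins, and alternative oxidase was matched by its Swiss-Prot name. No sequence of a unigene was used here.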

Additional observations from a re-analysis of the deposited data

How the results depend on the processing

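The 2019 calls of G2-S3 against G2-CK became 2683 with DESeq2, 1289 with the replicate block, 532 with a log2 fold change of at least 1, and 735 to 3135 with 1 library left out. The other 6 alternatives gave 1410 to 2075 calls. Over the lists, 553 calls became 726 with DESeq2, 369 with the replicate block and 221 to 872 with 1 library left out. Of the 239 called names looked at one by one, 121 to 229 were called with 1 library left out. In the fit of the 6 libraries of G2-CK and G2-S3 alone, which gave the 1410 calls, 182 of the 239 were called. By the study's methods the pots stood in randomized blocks, but no source used here ties a replicate number to a block. The deviations of same-numbered libraries correlated at r = -0.15, -0.08 and 0.02, so the numbers were not taken as pairs and the fit with the block, under which 53 of the 239 calls were lost, is given here only. Salt 3 correlated best with control 3, and neither of the other salt libraries with the control of its own number. The largest unigene of a name alone reversed NADP-dependent malic enzyme, chloroplastic (from 0.69 to -0.15) and Probable WRKY transcription factor 49 (from -0.99 to 0.24), and the cause was not tested. The median of all tested names moved by less than 0.1 on the log2 scale under each alternative. Levels under the listing limit of 0.3 FPKM cannot be told from 0.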

Other observations

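A called name outside the lists, chosen after its values were seen, was Hippocampus abundant transcript-like protein 1, a name from a vertebrate family of membrane transporters. It lay at 6.82, 5.34 and 2.21 CPM in G2-CK and was listed in 0 of the 3 salt libraries (adjusted p = 0.0017 with edgeR), and it was unlisted in G2-S4 as well.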
